A study of Saccharomyces cerevisiae with 12 samples.

Results

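Loss of Hel2 in yeast that keep their U34 tRNA modifications was examined through 5PSeq, which sequences mRNA fragments that carry a 5′ phosphate and so arise during mRNA degradation. The comparison set the 3 hel2Δ libraries against the 3 wild-type libraries, 6 of the 12 libraries in the series, and took in all genes that passed a filter on low counts, 3378 of the 6302 genes in the table. The other libraries came from ncs2Δelp6Δ and ncs2Δelp6Δhel2Δ, which lack the U34 modifications. All strains were in the BY4741 background and grew in rich medium (YPD) at 30°C and 200 rpm to mid-exponential phase. The wild type is listed as MATa his3Δ1 leu2Δ0 ura3Δ0 met15Δ0, and the mutant as MATa his3Δ1 leu2Δ0 ura3Δ0 hel2Δ::LEU2. HEL2 was thus replaced by a functional LEU2 gene, which the wild type lacks, and met15Δ0 is listed for the wild type alone. The effects of HEL2, of the LEU2 marker and of any difference at MET15 cannot be told apart in this pair of strains. Whether MET15 differs is in doubt, as the wild-type libraries had 8, 8 and 12 reads of this gene (named MET17 below). Nothing in the labels says that the replicates were separate cultures, so p-values measure only the spread between these libraries, which may be technical.

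Hel2 is an E3 ubiquitin ligase that recognises collided ribosomes. It ubiquitinates proteins of the small ribosomal subunit, and this marks the stalled ribosome for splitting by the RQT complex. The peptide left on the large subunit is then handled by the ribosome-associated quality control (RQC) machinery, and the mRNA can be cut and degraded by no-go decay. U34 modifications sit at the wobble position of the anticodon of certain tRNAs and help these tRNAs to decode. This pair of strains shows how the 5PSeq signal of each gene differs when LEU2 replaces HEL2 and the U34 modifications are kept. Since 5PSeq reads depend on both mRNA abundance and mRNA decay, and RNA-seq was not used here, a change in level and a change in decay cannot be told apart.

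The 6 libraries held between 105563 and 225293 reads, with a median of 187118, and hel2Δ replicate 2 was the smallest. Counting error alone limits detection to 3 reads, a share between 0.00133% and 0.00284% depending on the library. Spearman correlations across genes ran from 0.883 to 0.912 between replicates of a strain and from 0.865 to 0.916 between hel2Δ and wild type. Pairs of replicates differed by more than counting noise (chi-square per degree of freedom from 1.92 to 3.48), so none was treated as a repeat deposit. The a-specific gene STE2, the receptor for alpha-factor, had 398 reads in wild type and 340 in hel2Δ (the labels give MATa). Of the alpha-specific genes, STE3 had 2 and 3 reads and MF(ALPHA)1 had 1 and 1, whereas SAG1 had 33 and 39.

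HEL2 (YDR266C, chromosome IV, 1000104 to 1002023 in the RefSeq R64 annotation) was examined first, as it checks the labels. Wild type gave 24, 14 and 10 reads, and hel2Δ gave 5, 1 and 2. All hel2Δ libraries lay below all wild-type libraries, but a few reads remained. In CPM, scaled by edgeR's TMM method, its level was 92.5 ± 18.3 in wild type and 16.4 ± 9.49 in hel2Δ (SD, n = 3). The log2 fold change was −2.41 (standard error 0.48, 95% interval −3.40 to −1.43) and the adjusted p was 0.0401 by the quasi-likelihood test of edgeR. The call of HEL2 was lost whichever of the 6 libraries was left out, with adjusted p from 0.0559 to 0.527 and log2 fold changes from −3.07 to −2.05. DESeq2 gave −2.44 with an adjusted p of 0.155. The genes on either side of HEL2 had few reads, apart from AKR1 (YDR264C), a palmitoyltransferase, which had 60 reads in wild type and 55 in hel2Δ (log2 fold change 0.02, 95% interval −0.63 to 0.66). CIA1 had 13 and 6 reads, a ratio of 0.501 after scaling with an exact interval from 0.156 to 1.41. PEX10 had 6 and 9, and MSW1 had 10 and 10.

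The marker LEU2, which encodes isopropylmalate dehydrogenase, had 0, 1 and 0 reads in wild type and 6, 2 and 2 in hel2Δ. After scaling this was a ratio of 10.9, with an exact interval from 1.55 to 471. URA3 had 1 read in wild type and 0 in hel2Δ, and HIS3 had 8 and 7. MET17 (MET15), listed as deleted in the wild type, had 8, 8 and 12 reads there and 14, 10 and 14 in hel2Δ (log2 fold change 0.55, 95% interval −0.36 to 1.46). The MET17 reads of the wild type therefore go against the met15Δ0 that is listed for it. The reads of HEL2 and LEU2 differ in the direction of the labels, though 8 HEL2 reads remained in hel2Δ against 48 in wild type.

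Few genes passed the threshold in hel2Δ against wild type. Of 3378 genes tested, 3 had an adjusted p under 0.05 (0.0888%), 1 higher and 2 lower in hel2Δ, and the lower genes (0.0592%) were HEL2 itself and LEU1. An unadjusted p under 0.05 was found for 141 genes (4.17%), 63 higher (1.87%) and 78 lower (2.31%). For 343 genes (10.2%) the 3 libraries of one strain did not overlap the 3 of the other, 162 higher (4.8%) and 181 lower (5.36%). A log2 fold change beyond 1 in either direction was measured for 72 genes. The median log2 fold change was −0.01, and 1645 genes (48.7%) had a positive value.

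**Figure D1:**
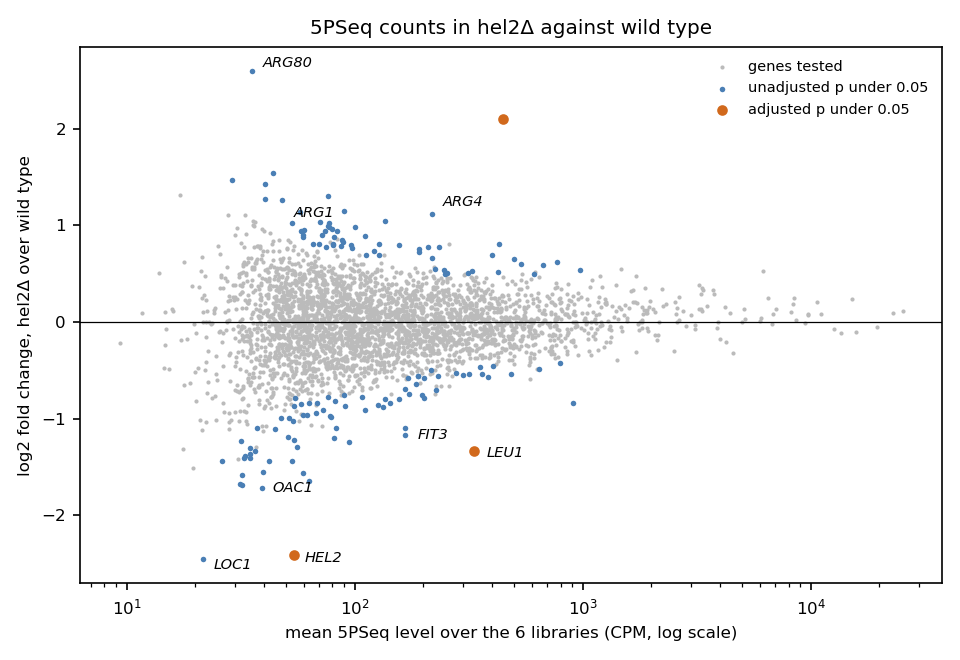
Log2 fold change of 5PSeq reads in hel2Δ over wild type (vertical axis) against the mean level over the 6 libraries in CPM (horizontal log axis), 1 point for each of the 3378 genes tested. Orange points are the 3 genes with an adjusted p under 0.05, blue points other genes with an unadjusted p under 0.05, and the spread of the points narrows as the level rises.

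How small a change could have been seen depended on the read number. The 95% interval of the log2 fold change lay within 1 of 0, which is less than a doubling or halving, for 1909 genes (56.5%). Among the 283 genes with at least 100 reads per library the share was 97.9%, and among the 859 genes with fewer than 10 it was 9.20%. It was 56.3% for genes with 10 to 30 reads and 90.6% for those with 30 to 100. High counts alone did not give narrow intervals, since replicates of the most abundant genes differed. RRP12 (YPL012W), a ribosome biogenesis factor, had the highest level, with 4061, 3895 and 3836 reads in wild type and 4467, 3005 and 3963 in hel2Δ. Its log2 fold change was 0.12, with a 95% interval from −0.65 to 0.88. The plasma membrane proton pump gene PMA1 (YGL008C) had 2978, 1790 and 1782 reads against 2394, 1248 and 1841, a log2 fold change of −0.07 (−0.70 to 0.55).

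LEU1 (YGL009C, chromosome VII, 476313 to 478652) was the clearest lower gene. It encodes isopropylmalate isomerase, the leucine enzyme that acts just before Leu2 and whose gene is activated by Leu3 together with the pathway intermediate isopropylmalate. Its libraries had 100, 64 and 76 reads in wild type and 41, 14 and 34 in hel2Δ, with no overlap after scaling. Mean levels were 482 ± 62.6 CPM for wild type and 187 ± 33.5 CPM for hel2Δ (SD, n = 3). LEU1 fell by 1.33 on the log2 scale (standard error 0.22, 95% interval −1.79 to −0.88, adjusted p = 0.00537 in edgeR). The call was lost without wild type replicate 3 (adjusted p = 0.0559), hel2Δ replicate 2 (0.0860) or hel2Δ replicate 3 (0.182), with log2 fold changes of −1.23, −1.27 and −1.25.

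The remaining genes of leucine and branched-chain synthesis and transport did not pass the test. Of 13 list members tested, LEU1 was the single call, 10 had a negative log2 fold change and the median was −0.14. OAC1 (YKL120W), a mitochondrial carrier of oxaloacetate and isopropylmalate, had 18, 8 and 7 reads in wild type and 6, 0 and 3 in hel2Δ. All hel2Δ libraries lay below those of wild type, with a log2 fold change of −1.72 (standard error 0.53, unadjusted p = 0.00319, adjusted p = 0.980). The isopropylmalate synthase genes LEU4 and LEU9 had −0.21 (95% interval −0.78 to 0.37) and 0.01 (−0.52 to 0.54), and the regulator LEU3 had −0.08 (−0.92 to 0.75). ILV2, ILV3 and ILV5, which act on the shared branched-chain steps, had values of 0.07, −0.17 and −0.14, and the transaminase genes BAT1 and BAT2 had −0.19 and −0.09. For these 5 genes the bounds of the intervals lay between −0.66 and 0.52, so a doubling or halving lies outside them. BAP2, a leucine permease, had 388, 226 and 210 reads in wild type against 225, 108 and 235 in hel2Δ. Its CPM did not overlap between the strains (1612 ± 129 and 1226 ± 2.70, SD, n = 3), with a log2 fold change of −0.40 (95% interval −0.87 to 0.08, adjusted p = 0.980).

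**Figure D2:**
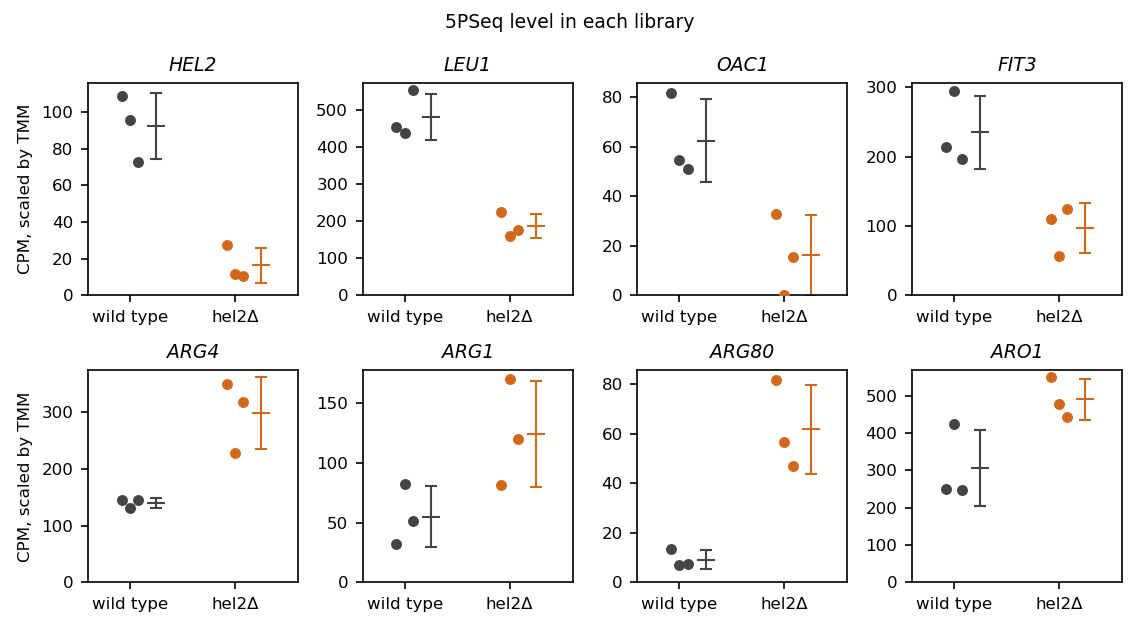
5PSeq level of 8 genes in CPM scaled by TMM (vertical axes, from 0), 1 point per library, for wild type (grey) and hel2Δ (orange), with the mean and SD of 3 libraries beside the points. HEL2, LEU1, OAC1 and FIT3 lie lower and ARG4, ARG80 and ARO1 higher in all hel2Δ libraries, while ARG1 overlaps by a narrow margin, and of these 8 genes only HEL2 and LEU1 had an adjusted p under 0.05.

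Genes for the synthesis of other amino acids lay mostly on the higher side in hel2Δ. Arginine genes, a list given without 1 of its members, had the highest median of the lists, 0.95. Of the 9 members listed here, 5 passed the count filter, and these were all positive. The others went both ways, with 19 reads in wild type and 7 in hel2Δ for ORT1 and 3 and 2 for ARG3. CPA1 had 3 and 11, and ARG2 had 15 and 17. ARG4 (YHR018C), argininosuccinate lyase, had 32, 19 and 20 reads in wild type and 64, 20 and 61 in hel2Δ, or 140 ± 8.89 and 298 ± 63.4 CPM (SD, n = 3). The libraries did not overlap, and the log2 fold change was 1.12 (standard error 0.27, adjusted p = 0.272). ARG1, argininosuccinate synthase, had 7, 12 and 7 reads against 15, 15 and 23 (1.15, standard error 0.37), and ARG7 had 10, 7 and 12 against 20, 7 and 26 (0.95, standard error 0.34). ARG8 had 0.25 and ARG5,6 had 0.08. ARG80 (YMR042W), a regulator of arginine genes, had 3, 1 and 1 reads in wild type and 15, 5 and 9 in hel2Δ. Every wild-type library was at or under 3 reads, and the mean hel2Δ level was 3.31-fold the floor of 3 counts per wild-type library. That ratio leaves out counting error in the hel2Δ reads. The log2 fold change of ARG80 was 2.59, with a confidence interval from 1.29 to 3.90 (adjusted p = 0.272 in edgeR). No wild-type library came near the filter's minimum count of 10. ARG80 thus entered the test only through other libraries, among them those of hel2Δ, where it was high. Its fold change and interval depend on that selection.

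Lysine genes had a median of 0.51 with 8 of 8 positive, led by LYS20, homocitrate synthase, with 18, 15 and 12 reads against 25, 19 and 27 (log2 fold change 0.80, unadjusted p = 0.0171). The lysine median was 0.29 without wild type replicate 3 and 0.31 without hel2Δ replicate 3. Histidine genes had a median of 0.37 with 4 of 4 positive, from 0.28 for HIS1 to 0.50 for HIS5. Methionine and sulfur genes had a median of 0.33 with 13 of 14 positive, the exception being MET10 at −0.09. Aromatic amino acid genes had a median of 0.35 with 7 of 10 positive. In that list ARO1, the multifunctional enzyme of the shikimate pathway, had 55, 62 and 34 reads against 101, 42 and 85 and did not overlap in CPM (0.69, 95% interval 0.20 to 1.17, adjusted p = 0.980), whereas TRP2 had −0.89. Serine, threonine and aspartate genes had a median of 0.24 with 9 of 13 positive, led by the asparagine synthetase ASN1 (0.59, 95% interval 0.14 to 1.05). That median was 0.10 without wild type replicate 1, 0.46 without replicate 2 and 0.11 without replicate 3. Joined after their values were seen, these 6 lists held 78 genes, of which 54 passed the count filter. Of the 54 genes tested, 46 were positive and 8 negative, with a median of 0.33 beside −0.01 for all genes. Members under the filter went both ways. MET7 had 20 reads in wild type and 12 in hel2Δ, MET3 had 7 and 2, and HIS6 had 11 and 9. MET2 had 13 and 23, and TRP3 had 15 and 17. Leucine genes (median −0.14) and glutamate, proline and nitrogen genes (0.19) are not in the joined list. Its values are therefore a description and no independent support. Of the 54, 7 had an unadjusted p under 0.05 and a higher level, and none a lower level, where 1.87% and 2.31% of all genes did. The libraries did not overlap for 9, all of them higher, where 4.8% of all genes were higher and 5.36% lower without overlap.

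Taken per library, the mean log2 CPM of the joined lists minus that of all genes was −0.16, 0.07 and −0.20 in wild type and 0.25, 0.25 and 0.20 in hel2Δ. The strains did not overlap on this measure, for lists joined after values were seen, and wild type replicate 2 lay nearest to hel2Δ. Their summed levels ran from 11928 to 16758 CPM in wild type and from 16681 to 18419 CPM in hel2Δ, which overlap. Glycolytic and fermentation genes moved between libraries in a like way, with wild type replicate 2 highest (1.33, 1.86 and 1.33 in wild type and 1.70, 1.62 and 1.70 in hel2Δ), and without that library the median of the joined lists was 0.47. The 13 genes of general amino acid control had a median of −0.03, which ran from −0.02 to 0.18 with a single library left out, and no member with an unadjusted p under 0.05. Their values ran from −0.32 for GCD1 to 0.26 for GCN20, and the main transcription activator GCN4 had −0.15. Amino acid permeases had a median of −0.21 with 5 of 12 positive, and that median was 0.21 without wild type replicate 1.

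**Figure D3:**
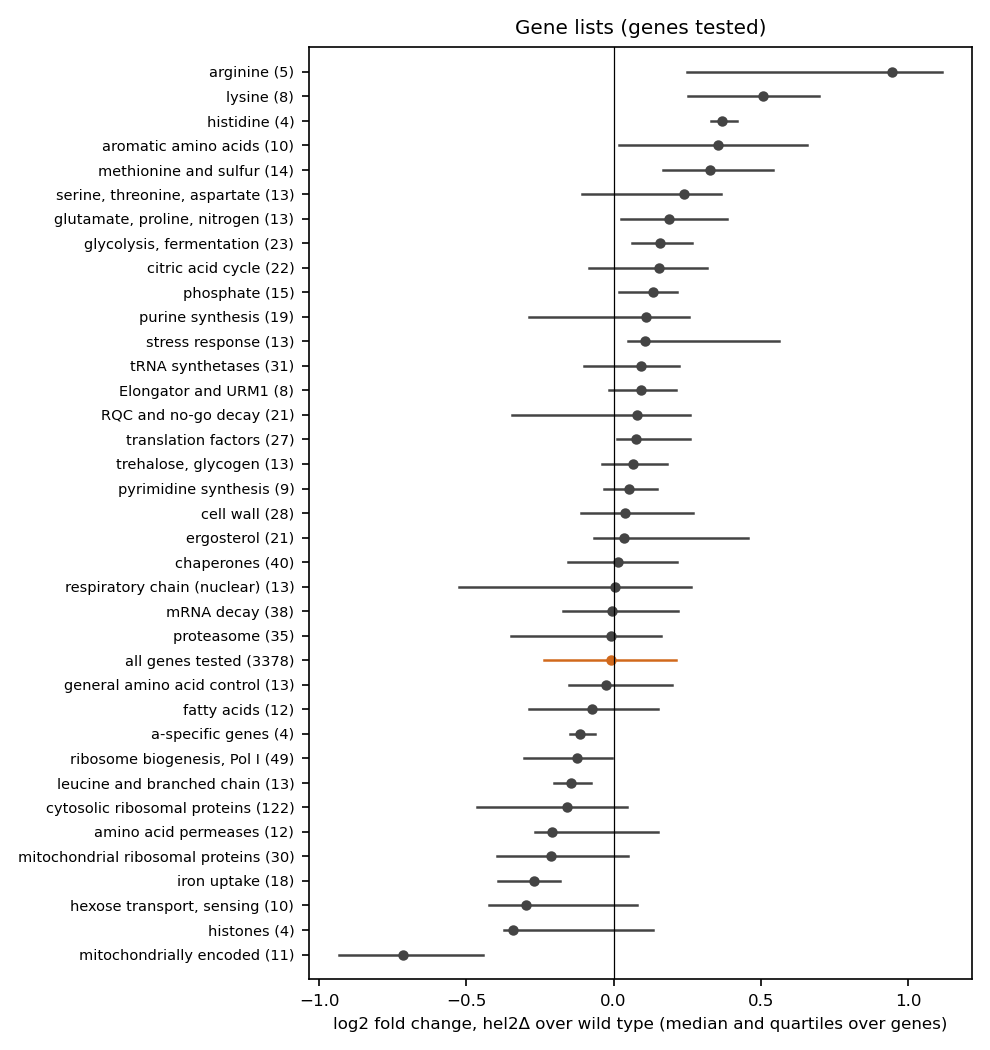
Log2 fold change in hel2Δ over wild type for 35 gene lists, for mitochondrially encoded genes (added after values were seen) and for all genes tested (orange), with the point at the median and the line from the lower to the upper quartile over the genes of a list. Numbers in brackets are genes tested, the arginine list is without 1 member, and the medians run from −0.72 for mitochondrially encoded genes to 0.95 for arginine genes.

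Genes of the machinery that works with Hel2 had values on both sides of 0. Among 21 genes of RQC and no-go decay the median was 0.08, and HEL2 was the single call. SLH1 (0.10), a helicase of the RQT complex, MBF1 (0.41), which acts at collided ribosomes, and the ubiquitin ligase RKR1 (0.48, also known as LTN1) had positive values. The carboxy-terminal tailing factor TAE2 (RQC2) had −0.11, CUE3, an RQT component, −0.42, and DOM34, which splits stalled ribosomes, −0.62. SYH1 (0.20), linked to the decay of mRNAs with stalled ribosomes, its relative SMY2 (−0.19) and CUE2 (0.41), the endonuclease of no-go decay, had values of both signs. The 38 genes of general mRNA decay had a median of −0.01, from −0.78 for the exosome subunit RRP45 to 0.67 for LSM1, and 27 of the 38 had intervals within 1 of 0. The 8 Elongator and URM1 genes, which make the U34 modifications, had a median of 0.09, with −0.09 without hel2Δ replicate 2 and −0.02 without wild type replicate 3.

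Translation genes showed small medians of differing sign. The 27 translation factors had 0.07 with 21 positive, and the 31 tRNA synthetases 0.09 with 22 positive. PAB1, the poly(A)-binding protein, had 0.46 (95% interval −0.03 to 0.95) and CDC33, the cap-binding protein eIF4E, had −0.74 (−1.61 to 0.13). The 122 cytosolic ribosomal protein genes tested had a median of −0.16 with 81 negative, and 5 had an unadjusted p under 0.05, all lower (over all genes 2.31% were lower and 1.87% higher by that p). These were RPL36A (−1.67), RPL34B (−1.55), RPL41B (−1.43), RPL41A (−1.33) and RPL12B (−1.10), each with at most 31 reads in any of the 6 libraries. Reads shared with a near-identical paralog were not counted, so values of paralogous ribosomal protein genes are uncertain. The median of the list was 0.04 without wild type replicate 1, and its mean level relative to all genes overlapped between strains (0.32, −0.25 and 0.07 in wild type, 0.01, −0.33 and −0.10 in hel2Δ). Ribosome biogenesis genes had a median of −0.13 with 37 of 49 negative, and mitochondrial ribosomal protein genes −0.21 with 20 of 30 negative, which was −0.04 without wild type replicate 1.

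Protein quality control genes were balanced. The 35 proteasome genes had a median of −0.01 with 16 positive, ranging from −1.13 for PUP2 to 1.43 for SCL1, whose reads were 9, 2 and 1 in wild type and 6, 4 and 20 in hel2Δ. The 40 chaperone genes had a median of 0.01 with 21 positive. HSP104, the disaggregase, had 36, 40 and 25 reads in wild type and 50, 27 and 56 in hel2Δ (0.50, 95% interval 0.01 to 0.99, adjusted p = 0.980). The co-chaperone SBA1 had 0.88 and HSP78 had −0.53, and 31 of the 40 intervals lay within 1 of 0.

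Iron uptake genes lay on the lower side, with a median of −0.27 and 15 of 18 negative, without a call. FIT3 (YOR383C), a cell wall mannoprotein that retains iron-siderophores, had 47, 43 and 27 reads in wild type and 20, 5 and 24 in hel2Δ, or 235 ± 52.2 and 97.0 ± 35.7 CPM (SD, n = 3). Its libraries did not overlap, with a log2 fold change of −1.17 (standard error 0.32, 95% interval −1.83 to −0.51, adjusted p = 0.617). The siderophore transporter ARN1 had −0.83, and the high-affinity iron uptake pair FTR1 and FET3 had −0.44 and −0.34. The transcription activator AFT1 had −0.24, and FIT2 had −0.18. Summed over the list, levels were 4496, 4064 and 4267 CPM in wild type and 3647, 3351 and 3440 CPM in hel2Δ, without overlap. Such sums also did not overlap for the leucine, arginine, aromatic amino acid and permease lists. The same held for the RQC and respiratory chain lists, whose medians were 0.08 and 0.01, so this was not particular to iron uptake. Hexose transport and sensing genes had a median of −0.30 with 7 of 10 negative, led by the glucose sensor RGT2 (44, 16 and 28 reads against 17, 9 and 20, log2 fold change −0.79). That median was near 0 (−0.00342) without wild type replicate 1.

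**Figure D4:**
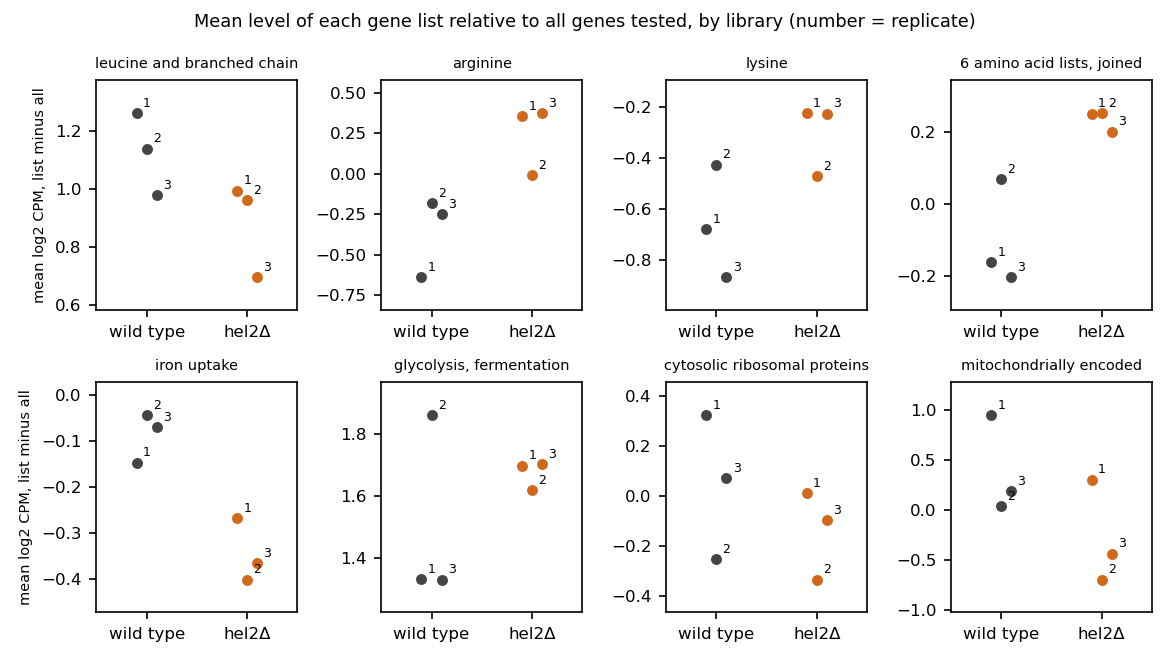
Mean log2 CPM of the members of 8 gene lists minus that of all genes tested (vertical axes, which differ between panels), 1 point per library with its replicate number, wild type in grey and hel2Δ in orange. Arginine genes and the amino acid lists joined after values were seen lie higher and iron uptake genes lower in all hel2Δ libraries. The other lists shown overlap, and wild type replicate 1 stands highest for mitochondrially encoded and ribosomal protein genes.

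In central metabolism the medians were small. Glycolytic and fermentation genes had a median of 0.16 with 21 of 23 positive and none with an unadjusted p under 0.05, and citric acid cycle genes had 0.15 with 14 of 22 positive. Nuclear genes of the respiratory chain, 13 tested of 36 listed, had a median of 0.01 with quartiles of −0.53 and 0.26. Only 3 of the 13 had an interval within 1 of 0. With a single library left out, that median ran from −0.29 (hel2Δ replicate 1) to 0.02 (hel2Δ replicate 2). Ergosterol genes had 0.03 (0.29 without wild type replicate 2 and −0.02 without wild type replicate 3) and fatty acid genes −0.07. Purine genes had 0.11, with ADE3 at 0.62 (102, 126 and 69 reads against 156, 85 and 188), and phosphate genes had 0.13 with 13 of 15 positive. Medians were 0.04 for cell wall genes, 0.11 for stress response genes, 0.05 for pyrimidine genes and 0.19 for genes of glutamate, proline and nitrogen use. The 4 histone genes tested, of 10 listed, had a median of −0.34, with 3 negative and HHO1, described below, at 1.54. The histone median was −0.04 without wild type replicate 1. Without that library the pyrimidine median was −0.18 and the stress response median 0.28, and without wild type replicate 3 the cell wall median was −0.01 and the stress response median 0.03 (0.03 also without hel2Δ replicate 3). Genes encoded by the mitochondrial genome had the lowest median, −0.72, with 11 of 11 negative, a list added after values were seen. Among them the intron-encoded reading frames AI5_ALPHA and BI4 had −1.64 and −1.10. Reading frames of this genome overlap one another, so their counts are uncertain. Wild type replicate 1 had the highest share of such reads, 0.466% against 0.20% and 0.234% in the other wild-type libraries and 0.281%, 0.123% and 0.155% in hel2Δ, and without it the median was −0.27.

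Apart from the genes already given, those with the smallest p among the genes with separate libraries covered a range of functions, and none of those named here passed at an adjusted p under 0.05. On the higher side, HHO1, the linker histone, had 4, 5 and 2 reads in wild type and 13, 6 and 11 in hel2Δ (1.54). The TFIIH helicase gene RAD3 had 19, 11 and 13 against 25, 23 and 31 (1.04), and the double-strand break nuclease gene MRE11 had 11, 7 and 7 against 18, 9 and 16 (0.90). Others on this side were INN1 (1.04), needed for cytokinesis, the cell wall mannoprotein gene CWP1 (0.85), AIM3 (0.78), TEA1 (0.89) and PRY2 (0.65), a sterol-binding secreted protein. On the lower side, LEO1, a subunit of the Paf1 complex, had 24, 18 and 24 reads against 7, 4 and 15 (−1.25, adjusted p = 0.617). The SUMO protease gene ULP1 had 23, 13 and 10 against 2, 3 and 9 (−1.56). COG8 (−1.20) and APL5 (−0.86), both of Golgi and vesicle transport, were also lower in all hel2Δ libraries. LOC1, a ribosome biogenesis factor, had 8, 4 and 7 reads against 1, 0 and 2 (−2.45, confidence interval −4.24 to −0.66). Its mean wild-type level was 1.73-fold the floor of 3 counts per hel2Δ library, a ratio that leaves out counting error in the wild-type reads.

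The same genes were then read in cells without U34 modifications, in ncs2Δelp6Δhel2Δ against ncs2Δelp6Δ, which share no library with the comparison above. Both of these strains are listed with ncs2Δ::HIS3MX and elp6Δ::URA3 and without met15Δ0, and they too differ by hel2Δ::LEU2 and so by the LEU2 marker. NCS2 had 0 reads in ncs2Δelp6Δ and 2 in ncs2Δelp6Δhel2Δ (18 in wild type). ELP6 kept 4 and 10 (20 in wild type), and URA3, listed as its marker, had 0 and 1. In this comparison 192 of 3378 genes were called (5.68%), 158 higher (4.68%) and 34 lower (1.01%). Over all genes tested the median log2 fold change there was 0.03. The Spearman correlation between the changes of all genes in the 2 comparisons was 0.236. Of the 11 leading lower genes apart from HEL2, 9 were lower there too and 3 were called, LEU1 (−2.42), OAC1 (−2.27, adjusted p = 0.00189) and FIT3 (−1.22, adjusted p = 0.00691). Of the 11 leading higher genes reported here, 8 were higher there and 3 were called, ARG4 (0.78, adjusted p = 0.0220), ARO1 (0.82, adjusted p = 0.0274) and CWP1 (1.18, adjusted p = 0.00190) by the same edgeR fit. ARG1 and ARG7 were called as well, with 1.83 and 1.11. ARG80 had 0.33, and RAD3, MRE11 and INN1 had 0.08, −0.01 and −0.34. The mitochondrial frames AI5_ALPHA and BI4 had positive values there (0.67 and 0.71).

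**Figure D5:**
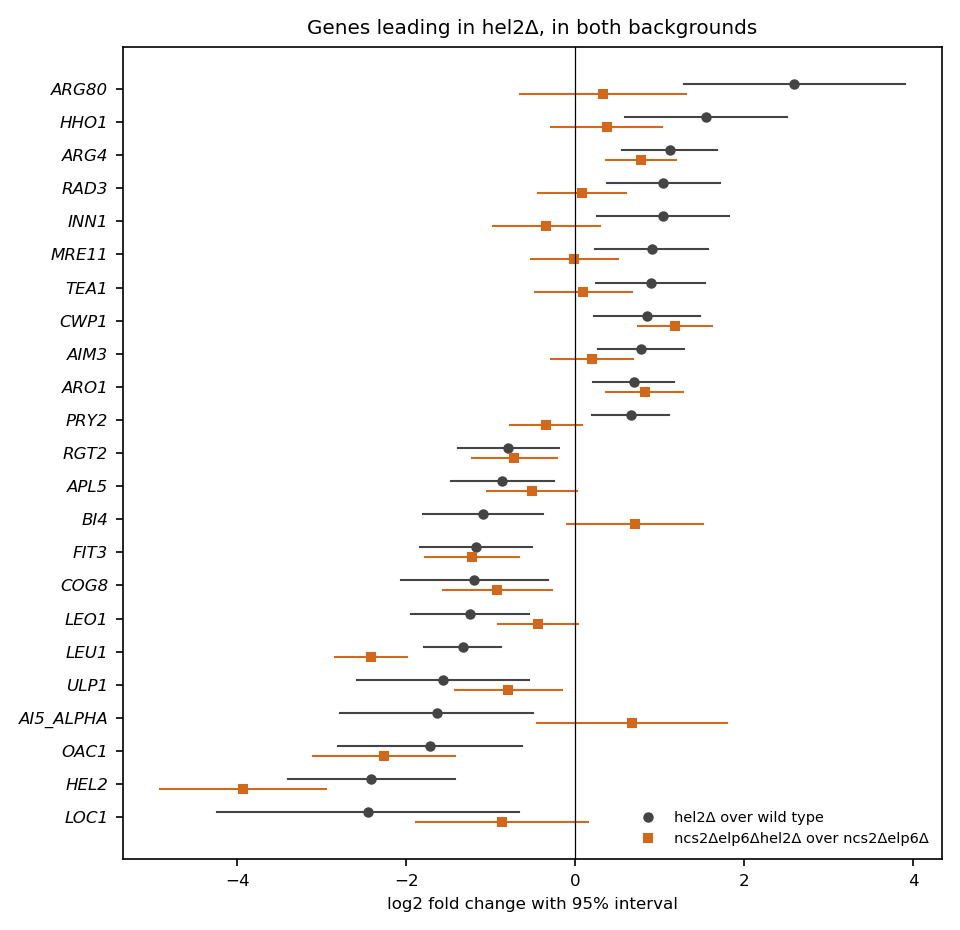
Log2 fold change of strains with hel2Δ::LEU2 over those without it, with its 95% interval (horizontal axis). Grey circles are cells with U34 modifications and orange squares are cells without them. Among genes without overlap between hel2Δ and wild type libraries, those with the smallest p are shown, 12 lower and 11 of 12 higher. The genes were chosen on the grey values, and HEL2, LEU1, OAC1, FIT3, ULP1, COG8, RGT2, ARG4, ARO1 and CWP1 have both values on the same side with intervals clear of 0.

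The interaction, the change in ncs2Δelp6Δhel2Δ over ncs2Δelp6Δ minus that in hel2Δ over wild type, had an adjusted p of 0.178 or more for each of the 121 genes that the naming rule selected. One gene of all tested was called for it (0.0296%), the lysine gene LYS2, named here after its values were seen, which had 0.36 in hel2Δ over wild type. List medians in the 2 comparisons were 0.95 and 1.11 for arginine, 0.51 and −0.33 for lysine, 0.37 and 1.14 for histidine, and 0.33 and 0.42 for the joined amino acid lists. They were −0.27 and −0.14 for iron uptake, −0.16 and −0.41 for cytosolic ribosomal proteins, and −0.72 and 0.21 for mitochondrially encoded genes. The differences between the backgrounds in these medians were not tested.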

How the data were processed

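5PSeq counts of hel2Δ and wild type (3 libraries each) were compared, with all 12 libraries of the series in the fit. The authors trimmed reads with cutadapt, removed noncoding RNA with STAR 2.5.3a, mapped the rest to open reading frames of sacCer3 in the sense direction with Bowtie 1.2.3 (at most 1 mismatch, unique hits) and removed PCR duplicates with UMI-tools. The deposited values are raw read counts for each frame and were not normalized. The published 5PSeq fit adds RNA-seq counts, which were not used here. Library totals and floors stand in the report, and exact conditional binomial intervals of read ratios cover counting error only. Gene symbols are those of the table, and 5772 of 6302 genes were matched by locus tag to RefSeq R64, which gave coordinates.

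Counts were tested with edgeR 4.0.16 in R 4.3.3 (filterByExpr with a minimum count of 10, TMM, glmQLFit and glmQLFTest, strain as the only factor), with Benjamini-Hochberg adjustment over 3378 genes and a threshold of 0.05. Standard errors are the log2 fold change over the square root of F, and 95% intervals use the t quantile of the total degrees of freedom. A prior count of 2 was added for log2 CPM. The code was also run on simulated counts drawn with the fitted spread of each gene. These hold no shifts of gene groups between libraries, so they do not show how the procedure handles such shifts. Gene lists (36, with 963 members, of which 731 were tested) received counts and medians only, and the figure shows those with at least 4 members tested. Two-sided tests were used throughout.

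Named genes are HEL2, the marker genes and neighbours, all calls, the 12 higher and 12 lower genes with the smallest p among those without overlap, leucine genes, the extreme members of each list and those with an unadjusted p under 0.05, and the 10 most abundant genes. Other list members named were chosen after their values were seen. Members, lists and rules were chosen with earlier results of these data known. The called gene that was higher in hel2Δ is not reported here, and the arginine list is given without it, a change made after its value was seen. The joined amino acid list and the mitochondrially encoded list were also added after values were seen. Alternatives were DESeq2 1.42.0 with and without independent filtering, its size factors, upper-quartile and total-count scaling, other filters, a fit of 6 libraries, a replicate block, and leaving out each library.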

Additional observations from a re-analysis of the deposited data

How the results depend on the processing

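The number of genes called was 3 with DESeq2's size factors, without the low-count filter and with 6 libraries, and 2 with DESeq2, upper-quartile or total-count scaling, 10 counts in every library, or the replicate block. Leaving out a library gave 1 to 2 calls, with 1 called without wild type replicate 3, hel2Δ replicate 2 or hel2Δ replicate 3. HEL2 lost its call with DESeq2 (adjusted p = 0.155), upper-quartile scaling (0.0541), total counts (0.0630) and the block (0.0888). The cause was not tested. Genes with an interval within 1 of 0 numbered 1868 of 3378 with the block and 1293 of the 1412 genes with 10 counts in every library. With 6 libraries they numbered 1894 of 2655, since fewer genes passed the filter without the libraries that lack U34 modifications. No called gene changed sign. Same-numbered libraries of hel2Δ and wild type did not deviate together (correlations across genes of −0.03, 0.02 and 0.01, and 0 of 6 libraries closest to their own number), so the block pairs libraries by number alone.

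Of 1711 values of named genes under the alternatives, 1658 kept their sign (the others were not called), and none was called that had not been. Of 584 medians, those of all genes tested included, 546 moved by less than a limit. This limit was the spread between replicates for each list, and a fixed value for all genes tested. Medians of the 6 amino acid lists were positive, and those of iron uptake, hexose transport, ribosome biogenesis, mitochondrial ribosomal protein and mitochondrially encoded genes negative, in 15 of 15 alternatives. The leucine median was positive in 1 (0.03, without hel2Δ replicate 3), and those of amino acid permeases (0.21) and cytosolic ribosomal proteins (0.04) in 1 each, without wild type replicate 1. The median of respiratory genes was −0.55 with 10 counts in every library, and that of general amino acid control 0.17. Depth limits the comparison, since 9.20% of genes with fewer than 10 reads per library had an interval within 1 of 0.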
